A study of Mus musculus with 4 samples.

Results

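The Kcnq1 imprinted domain was followed through the trimethylation of histone H3 at lysine 27 (H3K27me3) in mouse embryonic fibroblasts with and without the chromatin protein SmcHD1. Its members were 10 genes of distal mouse chromosome 7, taken by symbol from the authors' table of 22691 genes, namely Ascl2, Cd81, Tssc4, Kcnq1, Kcnq1ot1, Cdkn1c, Slc22a18, Phlda2, Nap1l4 and Osbpl5 in order of position. Together they spanned 775 kb, from 150152727 to 150927868 on chromosome 7 of the mm9 build. All 10 were in the table and 9 had a value in both genotypes. Phlda2, which encodes a small pleckstrin homology domain protein that restrains placental growth, had none in either. Its interval is 977 bp long, and none of the 1545 listed genes shorter than 1000 bp had a value.

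An imprinted domain is a stretch of genes expressed from 1 parental allele only. In the Kcnq1 domain the control region lies in an intron of Kcnq1 and is methylated on the maternal allele. On the paternal allele it acts as the promoter of Kcnq1ot1, a long noncoding RNA that runs antisense to Kcnq1 and silences its neighbours in cis. Polycomb complexes, including the one that writes H3K27me3, are known to act on the silenced allele. Silencing of the inner genes is found in embryo and placenta, while that of the outer genes is known mainly from the placenta.

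The fibroblasts came from female mouse fetuses of strain C57BL6/J at the stage labelled E13.5. The study comprised 4 libraries, namely an H3K27me3 immunoprecipitate (antibody CMA323) and an input without antibody from Smchd1 +/+ cells (WT), and the same pair from Smchd1 MD1/MD1 cells (MD1), which the series' design calls deficient for SmcHD1. How many fetuses or cultures stood behind a library is not stated in the sources used here. With 1 immunoprecipitate and 1 input per genotype there is no replicate error, so the comparisons below are of these libraries and carry no test. The values were the authors' log2 enrichments over whole gene intervals. They average the maternal and paternal alleles, and the depth behind them is unknown. Over 10 fibroblast marker genes the mark was low in both genotypes, with WT values of -3.28 to -1.80 and MD1 values of -5.08 to -1.21. Over 9 trophoblast genes with values, from a list of 10, its median was 1.32 in WT and 1.40 in MD1. Prl3d1 (WT -1.57, MD1 -1.92) and Tpbpa (WT -0.44, MD1 -0.77) were below 0, and all others of the 9 were above 0. Prl3d1 lay above the fibroblast markers in WT but inside their range in MD1.

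Promoters of 4 members are shown, because they stand for the range of the mark found in the domain. Each is the 250 bases before the RefSeq transcript start in the GRCm38.p6 build, 5′ to 3′ on the gene's strand. In Kcnq1ot1, capitals mark CCAAT, the box recognised by the transcription factor NF-Y, searched on both strands as CCAAT and ATTGG. In the other 3, capitals mark each CG, the dinucleotide that carries DNA methylation and that reads the same on both strands.
Kcnq1ot1 (chr7:143296548-143296797, minus strand): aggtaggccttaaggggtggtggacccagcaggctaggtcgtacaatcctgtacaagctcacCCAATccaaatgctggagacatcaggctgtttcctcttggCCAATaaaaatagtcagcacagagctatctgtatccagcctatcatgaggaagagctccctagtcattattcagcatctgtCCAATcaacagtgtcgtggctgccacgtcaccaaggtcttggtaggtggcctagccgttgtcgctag
Ascl2 (chr7:142969265-142969514, minus strand): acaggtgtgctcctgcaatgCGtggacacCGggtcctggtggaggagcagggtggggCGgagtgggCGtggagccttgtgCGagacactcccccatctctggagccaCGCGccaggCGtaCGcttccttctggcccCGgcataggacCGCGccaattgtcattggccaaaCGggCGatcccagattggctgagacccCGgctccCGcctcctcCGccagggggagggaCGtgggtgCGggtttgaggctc
Slc22a18 (chr7:143473539-143473788, plus strand): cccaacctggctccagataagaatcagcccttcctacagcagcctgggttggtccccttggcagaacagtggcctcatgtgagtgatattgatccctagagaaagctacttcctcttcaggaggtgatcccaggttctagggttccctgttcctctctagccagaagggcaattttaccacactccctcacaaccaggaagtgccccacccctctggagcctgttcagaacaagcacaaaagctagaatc
Cd81 (chr7:143052500-143052749, plus strand): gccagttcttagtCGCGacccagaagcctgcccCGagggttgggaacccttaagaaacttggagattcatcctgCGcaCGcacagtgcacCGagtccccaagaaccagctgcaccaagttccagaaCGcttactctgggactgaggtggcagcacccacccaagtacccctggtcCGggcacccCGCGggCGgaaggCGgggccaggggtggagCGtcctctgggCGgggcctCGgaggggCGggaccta

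The Kcnq1ot1 window held 3 CCAAT boxes, all on its own strand. Of the 32851 windows of this length in the RefSeq table, 33.8% held at least 1 on either strand and 2.79% held 3 or more. The Ascl2 window also held 3, of which 1 was on its own strand and 2 were on the other. Ascl2 and Cd81, near opposite ends of the range of enrichment given below, had 19 and 16 CG, against a median of 6 over all windows. Slc22a18, close to Ascl2 in enrichment, had 0 CG, and Kcnq1ot1 had 5. Of the members not shown, Tssc4 had 17 CG, Phlda2 21, and the 3 windows of Osbpl5 had 18, 14 and 1. The table held windows for 7 of the 10 members.

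In WT cells the domain was divided into well-marked and poorly marked genes, with Kcnq1ot1 between them. The well-marked genes were Ascl2, Slc22a18, Cdkn1c and Kcnq1, with log2 enrichments from 0.66 to 1.86. The poorly marked genes were Osbpl5, Cd81, Nap1l4 and Tssc4, with values from -3.20 to -2.09. MD1 cells kept the same division, with the well-marked genes from 0.84 to 2.12 and the poorly marked ones from -4.83 to -3.10. The whole range among the 9 members was 5.06 log2 units in WT and 6.95 in MD1. Autosomal values as a whole were also more widely spread in MD1, where MD1 regressed on WT had a slope of 1.25. In both genotypes the median member was Kcnq1ot1, at -0.47 in WT and -0.41 in MD1, where the median autosomal gene stood at -0.78 and -0.90.

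**Figure D1:**
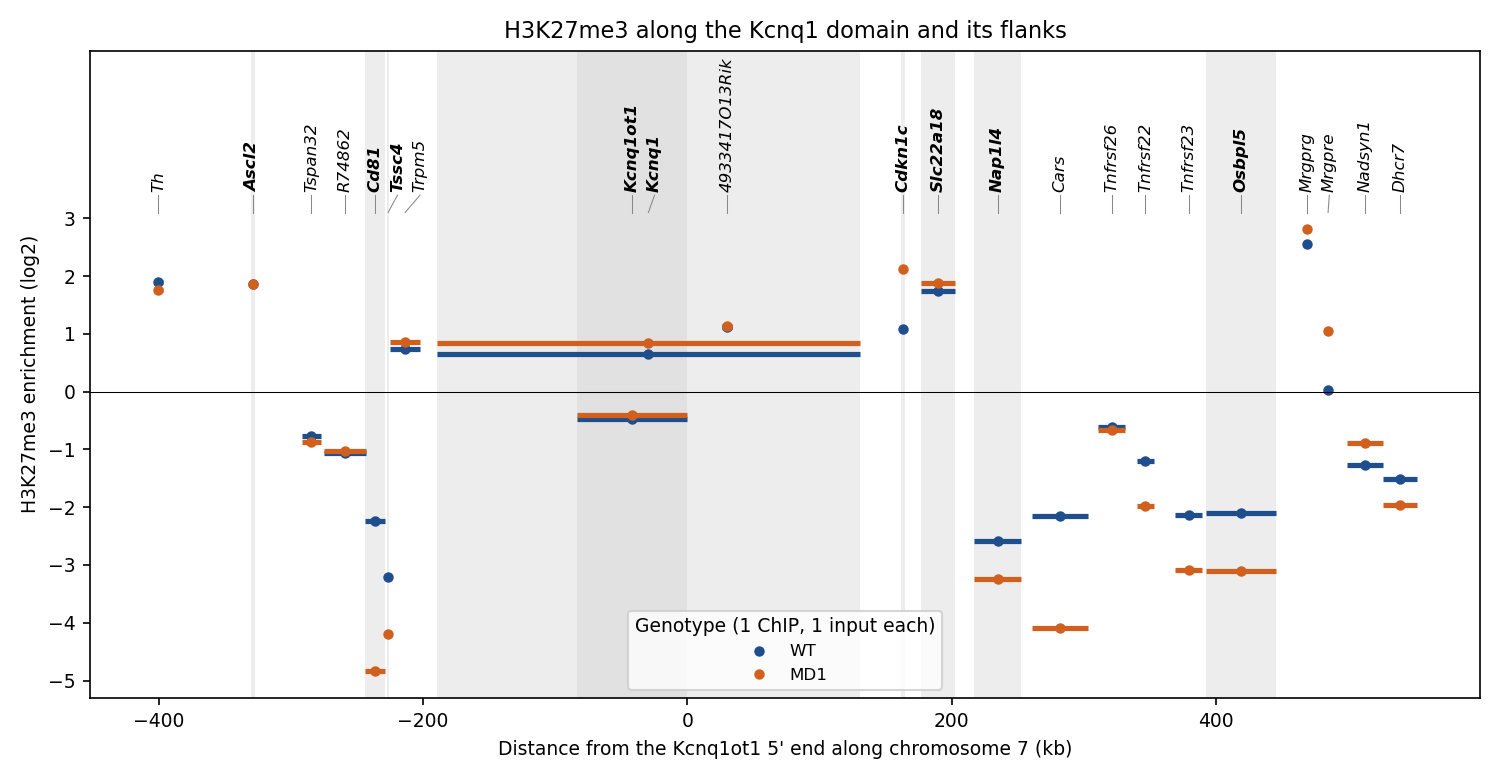
Log2 H3K27me3 enrichment of each listed gene with values (vertical axis) against its distance in kb from the 5′ end of Kcnq1ot1 (horizontal axis), with bars over the gene intervals, points at their centres, WT in blue and MD1 in orange. Member intervals are shaded grey and named in bold, and Phlda2 is missing because it had no value. The mark is above 0 from Trpm5 to Slc22a18 outside the Kcnq1ot1 interval and below -2 from Nap1l4 to Cars, and Cdkn1c and Cd81 show the largest gaps between the genotypes among the members.

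Kcnq1ot1, the silencing RNA, carried less of the mark than the channel gene it lies in, and neither gene differed much between the genotypes. Kcnq1ot1 (7, 150399016 to 150482452, minus strand) went from -0.47 in WT to -0.41 in MD1, a difference of 0.06. Kcnq1, encoding a voltage-gated potassium channel subunit (7, 150293159 to 150612947, plus strand), went from 0.66 to 0.84, a difference of 0.18. In linear terms these were 1.04-fold and 1.13-fold higher values in MD1. Kcnq1ot1 stood at percentile 55.3 of autosomal genes in WT and 58.3 in MD1, and Kcnq1 at percentiles 78.5 and 81.0.

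These intervals share reads, since ChIP reads carry no strand and all 83.4 kb of Kcnq1ot1, or 26.1% of the Kcnq1 interval, lie within Kcnq1. If input reads were spread evenly along Kcnq1, its value outside the Kcnq1ot1 interval would be 0.91 in WT and 1.11 in MD1. The rest of Kcnq1 would then exceed Kcnq1ot1 by 1.38 log2 units in WT and 1.51 in MD1. A further listed transcript inside Kcnq1, 4933417O13Rik, lay outside the Kcnq1ot1 interval and stood at 1.12 in WT and 1.14 in MD1. The dip over Kcnq1ot1 was thus present in both genotypes.

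Among the other inner genes, Cdkn1c carried more of the mark in MD1 cells and Slc22a18 differed little. Cdkn1c encodes the cyclin-dependent kinase inhibitor p57, a brake on cell division expressed from the maternal allele (7, 150644244 to 150646955, minus strand). Its enrichment was 1.08 in WT and 2.12 in MD1, a 2.06-fold higher value and the highest of the 9 members in MD1. Its difference of 1.04 stood at percentile 98.5 of autosomal genes. Of autosomal genes, 1.61% were at least 2-fold higher in MD1, and of those in the top quartile of WT enrichment, where Cdkn1c lies, 0.908%. In lowest terms the ratios behind its values were 43 to 21 in WT and 102 to 23 in MD1.

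Slc22a18, a membrane transporter gene 12.7 kb from Cdkn1c (7, 150659660 to 150685237, plus strand), stood at 1.74 in WT and 1.87 in MD1. It was above Cdkn1c by 0.66 in WT and below it by 0.24 in MD1. Its difference of 0.13 was close to that of Kcnq1. The 4 inner genes with values thus all had positive differences, from 0.06 to 1.04 with a median of 0.16, and Cdkn1c was the one past 2-fold. The 3 of them that are not Cdkn1c remained within 0.18. Autosomal genes had a difference below 0 in 69.0% of cases. In the top quartile of WT enrichment, which holds Kcnq1, Cdkn1c and Slc22a18, the median autosomal difference was 0.03.

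The outer genes held the lowest values of the domain, with the exception of Ascl2. Ascl2, a basic helix-loop-helix transcription factor needed for trophoblast development (7, 150152727 to 150155169, minus strand), had the highest value of the 9 members in WT, 1.86, and the same value, 1.86, in MD1. It was at percentile 95.7 of autosomal genes in WT and 94.6 in MD1. Its neighbour Th, the tyrosine hydroxylase gene, had 1.89 in WT and 1.77 in MD1.

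Cd81 showed the largest difference of the domain. It encodes a widely expressed tetraspanin of the cell surface (7, 150238655 to 150253835, plus strand). Its enrichment was -2.24 in WT and -4.83 in MD1, a 6.02-fold lower value, at percentiles 22.0 and 3.01 of autosomal genes. Its difference of -2.59 was at percentile 1.40. The ratios in lowest terms were 41 to 200 in WT and 7 to 195 in MD1, so the MD1 value may rest on few ChIP reads. Its first 0.937 kb, 6.17% of the interval, also belong to R74862, which differed by 0.03.

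The remaining 3 outer genes were also low in WT and lower in MD1. Osbpl5, encoding an oxysterol-binding protein family member (7, 150874667 to 150927868, minus strand), went from -2.09 to -3.10. Nap1l4, a histone chaperone gene of the nucleosome assembly protein family (7, 150699484 to 150735025, minus strand), went from -2.58 to -3.24. Tssc4, encoding a spliceosome assembly factor (7, 150255273 to 150256992, plus strand), went from -3.20 to -4.20. Osbpl5 was just past the 2-fold limit, with a difference of -1.01, and Tssc4 just short of it, at -0.997. Tssc4 has the shortest interval of the 9, at 1.72 kb. Its ratios in lowest terms were 2 to 19 in WT and 1 to 18 in MD1, so its values may rest on few ChIP reads, and 40 genes, Tssc4 included, have exactly its MD1 value.

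**Figure D2:**
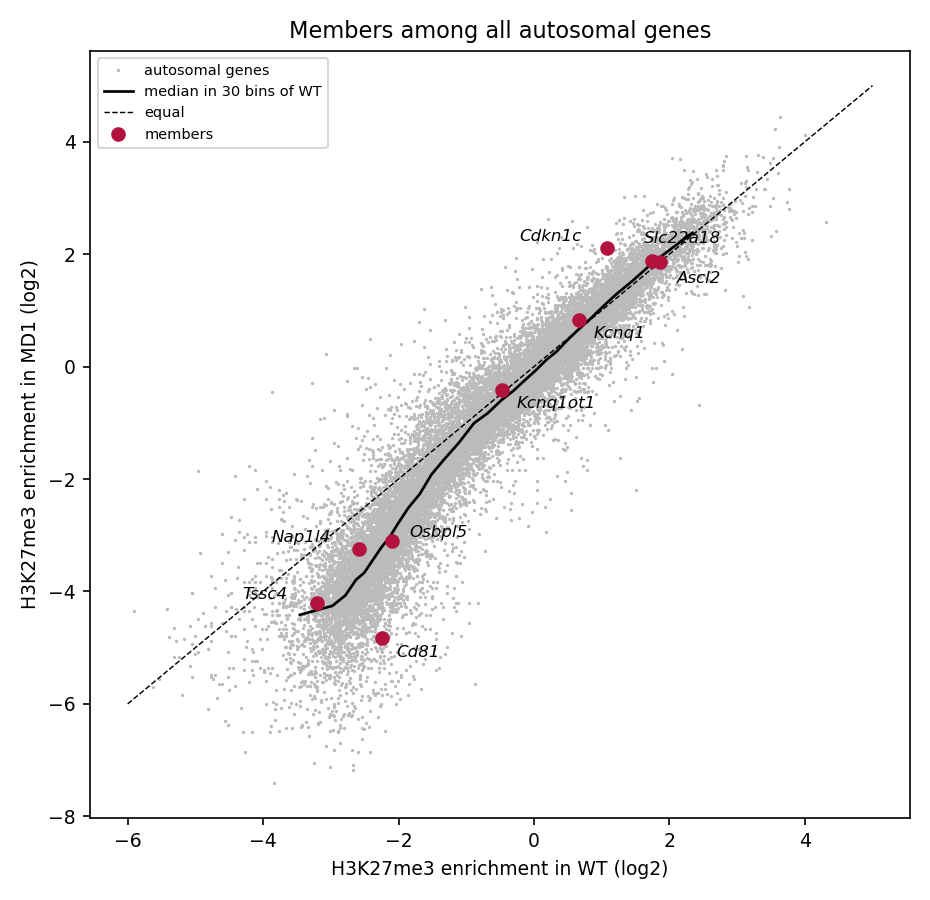
Log2 H3K27me3 enrichment in MD1 (vertical axis) against WT (horizontal axis) for autosomal genes (grey points) and the 9 members (red points), with the median MD1 value in 30 bins of WT value (solid line) and equality (dashed line). Poorly marked autosomal genes fall below equality, with Osbpl5, Nap1l4 and Tssc4 near the solid line, Cd81 below it and Cdkn1c above it.

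Read against the other autosomal genes, most of these differences were close to those found elsewhere. At least 2-fold lower values were found at 2 of the 9 members (22.2%), Cd81 and Osbpl5, and at 20.4% of autosomal genes. A difference below 0 was found at 5 of 9 members and at 69.0% of autosomal genes. The median difference was -0.0026 over the members and -0.27 over autosomal genes. How much lower a gene was in MD1 went with its level. In the lowest quartile of WT enrichment, at or below -2.13, the median autosomal difference was -1.11 and 56.9% of genes were at least 2-fold lower, while in the top quartile the median was 0.03. Cd81, Nap1l4 and Tssc4 lie in that lowest quartile. Osbpl5 lies just above it, in the next quartile, where the share was 19.4%.

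The differences were therefore also taken relative to the 500 autosomal genes of like length nearest in mean level, and to those nearest in WT value. On these scales Osbpl5 differed by -0.16 and -0.20, Tssc4 by 0.45 and 0.08, and Nap1l4 by 0.41 and 0.55. Tssc4 and Nap1l4 thus turned positive and Osbpl5 came close to 0. Cd81 remained lower, by -1.16 and -1.61, and Cdkn1c higher, by 0.91 and 1.03. On the scale of mean level, autosomal genes of Cd81's length quartile scattered with a standard deviation of 0.49. Genes as short as Cdkn1c scattered more, with a standard deviation of 0.86. These standard deviations pool genes of all levels and were not taken on the scale of WT value. By mean level, 3.42% of autosomal genes were past 2-fold downwards and 3.17% upwards. By WT value the shares were 5.13% and 4.21%. Kcnq1, Kcnq1ot1, Slc22a18 and Ascl2 lay between -0.12 and 0.23 on both scales.

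**Figure D3:**
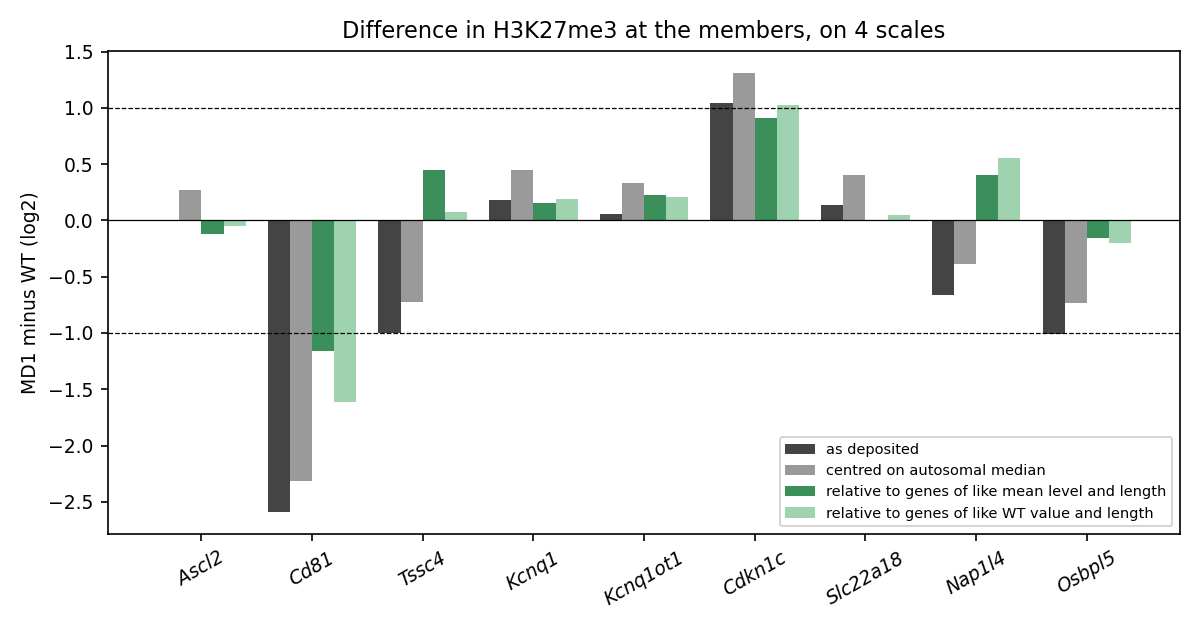
MD1 minus WT difference in log2 H3K27me3 enrichment (vertical axis) for the 9 members in order of position (horizontal axis), as deposited, centred on the autosomal median, and relative to autosomal genes of like length and either like mean level or like WT value. Dashed lines mark 2-fold. Cd81 is past -1 on all 4 scales, Cdkn1c is between 0.91 and 1.31, and the bars of Osbpl5, Tssc4 and Nap1l4 shrink or turn on the 2 relative scales.

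Steep borders between marked and unmarked genes were found in both genotypes. Tssc4 and Trpm5, encoding a cation channel of taste cells, are 0.441 kb apart, and the mark was higher at Trpm5 by 3.94 log2 units in WT and 5.06 in MD1. From Slc22a18 to Nap1l4, 14.2 kb apart with Phlda2 between them, it was lower at Nap1l4 by 4.32 in WT and 5.11 in MD1. Past the outer end lies Mrgprg, an orphan receptor gene 21.7 kb from Osbpl5, and it exceeded Osbpl5 by 4.64 and 5.91. Of 16 steps between successive genes from Ascl2 to Osbpl5, 3 exceeded 2 log2 units in WT and 5 did so in MD1. No share of such steps was taken over other autosomal genes, so whether these counts are unusual is not known. Some of the pairs overlap, among them R74862 with Cd81 and Kcnq1 with Kcnq1ot1. The added steps in MD1 were those into Cd81, of 1.19 in WT and 3.81 in MD1, and out of Cars, of 1.55 and 3.42. The wider spread of all autosomal values in MD1 applies to these steps too. The values of Tssc4, and that of Cd81 in MD1, may rest on few ChIP reads.

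Genes that lie among the members but are not on the list also ranged from marked to unmarked. Of 8 such genes, 1 (12.5%) was past 2-fold, and it was lower in MD1, as were 20.4% of autosomal genes. This was Cars, the cysteinyl-tRNA synthetase gene next to Nap1l4, which went from -2.16 to -4.08, and its difference relative to genes of like mean level was -0.75. The tumour necrosis factor receptor genes beside it were less marked the nearer they lay to Osbpl5. Tnfrsf26 went from -0.61 to -0.67, Tnfrsf22 from -1.19 to -1.99 and Tnfrsf23 from -2.14 to -3.09. Tspan32, a tetraspanin gene between Ascl2 and Cd81, went from -0.76 to -0.87, and Trpm5 from 0.74 to 0.86.

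Beyond the members, the flanks within 500 kb held 2 genes at least 2-fold higher in MD1. H19, the noncoding RNA gene of the adjacent imprinted domain, went from -0.40 to 1.36, and Mrgpre, an orphan receptor gene, from 0.03 to 1.05. Both are short genes. In their length quartile the difference relative to genes of like mean level had a standard deviation of 0.86. Igf2, the growth factor gene beside H19, went from 1.84 to 2.49. Mrpl23, Tnnt3 and Lsp1, on the far side of H19, differed by 0.36, 0.44 and -0.24. Ins2, an insulin gene, had a value of 2.03 in MD1 and none in WT. Mrgprg was the most marked gene of the stretch, at 2.55 in WT and 2.81 in MD1. Dhcr7 and Nadsyn1, the next genes outwards, went from -1.51 to -1.97 and from -1.27 to -0.89, and Shank2 from 0.68 to 0.61. In the list of 23 neighbouring genes, 22 had values in both genotypes, 5 were past 2-fold. These were H19 and Mrgpre upwards and Cars, Ccnd1 (-1.72) and Ppfia1 (-1.16) downwards, of which the last 2 were named after their values were seen. The shares were 13.6% downwards and 9.09% upwards, against 20.4% and 1.61% of autosomal genes, and relative to genes of like mean level 0 were past 2-fold downwards and 3 upwards. The median difference of the 22 was -0.06.

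The imprinted cluster governed by Airn, another long silencing RNA that overlaps a coding gene, was set beside the Kcnq1 domain. Airn stood at -0.61 in WT and -0.55 in MD1, near the values of Kcnq1ot1. Igf2r, the receptor gene that Airn overlaps, stood at -0.65 in WT and -0.78 in MD1, level with Airn and below Kcnq1. The neighbours silenced in this cluster, Slc22a2 and Slc22a3, stood at 1.01 and 1.51 in WT and at 1.29 and 1.65 in MD1, between Kcnq1 and Slc22a18 in both genotypes. Of the 7 listed genes of that cluster 0 were past 2-fold in either direction. Such calls are rare among autosomal genes in the upper 2 quartiles of WT enrichment, which hold all 7. There the shares were 2.92% and 2.36% downwards and 1.79% and 0.908% upwards. Among 17 listed genes of the Airn, Snrpn and Meg3 clusters with values, the nearest to Cdkn1c in both genotypes was Dlk1 (1.38 and 2.10). The nearest to Cd81 was Ube3a (-2.86 and -4.40), and the nearest to Osbpl5 was Ndn (-1.24 and -2.29). These likenesses are distances between 2 values per gene and were not tested.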

How the data were processed

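H3K27me3 ChIP-seq was compared between WT and MD1 fibroblasts from 1 deposited table with 1 value per gene and genotype. The authors deposited enrichments, which were taken to be on a log2 scale from the values themselves (WT -5.91 to 4.31, MD1 -7.41 to 4.45). Per the submitters' processing notes the build was mm9. The aligner, counter, filters and denominator are not stated in the sources used here. Nearly every value (99.98% in WT, 99.95% in MD1, relative tolerance 1e-12) was the log2 of 1 whole number over another, both up to 20000, shifted by a constant (0.043 in WT, -0.032 in MD1). Such ratios are given in lowest terms. If they are ChIP over input reads, the counts are multiples of them, so depth is unknown and no interval is given.

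Of 22691 genes, 20606 had values in both genotypes and 19836 of these were autosomal. The difference is MD1 minus WT, called at 2-fold. Relative differences subtract the median over those 500 autosomal genes that were closest by mean level, or by WT value, within the same length quartile, leaving out the gene itself. This step was run on simulated data in which MD1 was a straight-line function of WT, with noise in MD1 alone. That setting favours the match on WT value. A limit for recovering the added shifts was set for that match only, not for the match on mean level. A shift in MD1 moves the mean level too, so the scale matched on mean level understates large losses. Alternatives were a pseudocount of 0.01 or 1 on the linear scale, centring, keeping genes whose mean level reached the lower quartile (percentile 25), limits of 1.5-fold and 3-fold, and leaving out overlapping genes. The scale matched on WT value and a minimum of 10 in lowest terms were chosen after seeing the data. The members, lists and limits were chosen with earlier results of these data known. Named genes were the members, listed neighbours within 500 kb, genes overlapping a member, in other lists up to 4 genes with the largest absolute difference, and, for members past 2-fold, the nearest listed imprinted gene. One gene that the rule names is not reported here. Airn, Igf2r, Slc22a2, Slc22a3, Ascl2's promoter and the other printed windows were chosen after their values were seen. Positions count from 1. Python 3.11.15, numpy 2.4.6, pandas 2.3.3 and matplotlib 3.10.9 were used.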

Additional observations from a re-analysis of the deposited data

How the results depend on the processing

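No member past 2-fold changed sign under any setting run. The count of members at least 2-fold lower in MD1 was 2. It was 1 when centred on the autosomal median, relative to genes of like mean level or of like WT value, with a pseudocount of 0.01, with overlapping members left out, with lowest terms of at least 10, and at a limit of 3-fold. It was 0 with a pseudocount of 1 and with the filter on mean level, which removes all 4 poorly marked members by construction, and 4 at a limit of 1.5-fold. The matching autosomal shares were 13.3% when centred, 18.4% with a pseudocount of 0.01, 0.156% with one of 1, 7.61% at 3-fold and 34.4% at 1.5-fold. The count at least 2-fold higher was 1, and 0 relative to genes of like mean level, with a pseudocount of 1 and at 3-fold. For these 3 settings the autosomal shares upwards were 3.17%, 0.176% and 0.423%. Where the count stayed at 1 they were 3.22% when centred, 4.21% by WT value, 1.52% with a pseudocount of 0.01 and 5.05% at 1.5-fold. No autosomal share was taken for the settings that leave members out. The mean difference of the members was -0.43, against a median of -0.0026. The median of the 5 outer members, -0.997, became -0.12 relative to genes of like mean level and -0.0778 with a pseudocount of 1, where Cd81 differed by -0.23. A pseudocount of 1 exceeds the linear enrichment of these genes and so compresses their differences. Some settings can change a single member's value beyond a common shift. Of these, the relative scales and the pseudocount of 1 moved Cd81, Tssc4, Nap1l4 and Osbpl5 by more than a standard deviation. That was the standard deviation of the difference relative to genes of like mean level in their length quartile, used as a yardstick. It is a spread between genes and does not measure replicate error, which is not available here. No paired analysis was possible because each genotype had 1 value per gene. No library could be left out for the same reason. The unknown depth limits the low and short genes most.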

Other observations

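The Snrpn, Meg3 and Airn clusters were listed for comparison. In the Snrpn cluster, 6 genes had values, and 4 of these were past 2-fold downwards and 1 upwards, where the autosomal shares were 20.4% and 1.61%. Relative to genes of like mean level 2 were past 2-fold downwards and 1 upwards. Peg12 went from -0.87 to -5.65, and its lowest-term ratio in MD1 was 1 to 49. Ube3a, a ubiquitin ligase gene, differed by -1.54 and Mkrn3 by -1.21, whereas Magel2 differed by 1.54. In the Meg3 cluster all 4 listed genes had positive differences, where 69.0% of autosomal genes had a difference below 0. In the quartiles of WT enrichment that hold these genes, the median autosomal differences were nearer 0, at -0.09 and 0.03. Relative to genes of like mean level, 0 of the 4 were past 2-fold downwards and 1 upwards. The autosomal shares on that scale were 3.42% and 3.17%. Rtl1, a gene derived from a retrotransposon, went from -0.40 to 0.94, Dlk1 differed by 0.72, the noncoding RNA gene Meg3 by 0.47 and Dio3 by 0.29. In the Airn cluster the differences ran from -0.13 to 0.33, among them Plg (0.33), Slc22a2 (0.29) and Slc22a3 (0.14). Whether the clusters differ from each other was not tested.

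Of the 10 fibroblast markers, 5 were at least 2-fold lower in MD1, led by Fn1 (-2.19), Vim (-2.10), Prrx1 (-1.93) and Col1a2 (-1.36). Another 3 had positive differences. Of all autosomal genes 20.4% were at least 2-fold lower. In the lowest quartile of WT enrichment, where most of the markers lie, the share was 56.9%. Relative to genes of like mean level, 0 markers were past 2-fold downwards and 1 upwards. Of the 9 trophoblast genes with values none was past 2-fold. Most of them lie in the top quartile of WT enrichment, where few autosomal genes pass that limit. The shares there were 2.36% downwards and 0.908% upwards, so this count does not set the trophoblast genes apart. Their differences of largest size were at Elf5 (0.37), Prl3d1 (-0.35), Tpbpa (-0.33) and the X-linked Plac1 (-0.21).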
